A study of Homo sapiens with 36 samples.

Results

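A549 cells that had been kept for 1 week in medium with 5% cigarette smoke extract (CSE) were compared with unexposed A549 cells of the same week, over every gene that could be named by a single symbol. The comparison took the 3 arrays labelled CSE 5% at 1 week and the 3 labelled control at 1 week, 6 of the 36 arrays of the series, and covered 18417 genes, which is all the genes of the series with a symbol of their own. A549 is a line from a human lung adenocarcinoma that is widely used as a stand-in for alveolar epithelium. CSE is culture medium through which the smoke of burning cigarettes has been drawn; medium saturated in this way counts as 100%. Both groups were first deprived of serum and then held in DMEM with 1% fetal bovine serum, and the exposed cells received freshly made extract each day. At 1 week the cultures had not yet been split for the longer exposures of 3 and 5 weeks. The labels call the arrays biological replicates and the study speaks of independent experiments, all with 1 cell line, so the p-values speak of the variation among repeats of that line only.

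Smoke extract holds aromatic hydrocarbons, oxidants and reactive aldehydes. Polycyclic aromatic compounds bind the aryl hydrocarbon receptor, which then switches on enzymes of xenobiotic metabolism, while oxidants and aldehydes act on KEAP1, the sensor that otherwise holds back the antioxidant regulator NRF2. In lung epithelium, smoke is also known for NF-κB driven chemokine release, and in fibrosis research for its link to TGF-β, the growth factor that drives epithelial cells towards a mesenchymal phenotype. The study asked which genes and pathways CSE changes in these cells.

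All levels are log2 values that the authors obtained with RMA, a method that corrects, normalizes and summarises the probes of a gene, so that a difference of 1 is a doubling of signal. The medians of the 6 arrays lay between 6.72 and 6.79, and arrays correlated at 0.983 to 0.995 within a group and at 0.979 to 0.990 between the groups. RMA gives no detection call, so no gene can be called absent. Among markers of alveolar type 2 cells, 1 of 10 was higher with CSE 5% and none lower, and the mean level over this list was 6.88 to 7.07 in controls and 6.89 to 6.99 in exposed cells. The surfactant genes SFTPB and SFTPC had means of 6.14 and 6.37 in controls and of 6.08 and 6.13 in exposed cells, and without detection calls the label of alveolar epithelium could be neither borne out nor refuted from them. Lists for endothelial cells (0 of 7 changed), fibroblasts (0 of 8 higher, 1 lower) and leukocytes (0 of 7 higher, 2 lower) held no gene that rose, and PTPRC, which marks leukocytes, stood at 3.79 in both groups. The mean level of the leukocyte list ran from 6.72 to 6.74 in controls and from 6.30 to 6.37 in exposed cells, and its 2 lower members were the lysosomal gene CD68 and the lysozyme gene LYZ, which are described with the epithelial products. In a bulk culture, fewer cells of a kind and less RNA per cell cannot be told apart.

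With a log2 fold change above 1 and B above 0 (B is limma's log odds that a gene changed), 112 genes were upregulated by CSE 5%, 0.608% of those tested. Downregulated, with the same limits on the other side, were 135 genes, 0.733%. On the level of single genes, with an adjusted p under 0.05 and no limit on size, 1629 genes were higher (8.85%) and 1128 were lower (6.12%), and this is the rule behind "rose", "fell", "higher" and "lower" throughout. The median log2 fold change over all 18417 genes was -0.022. In all 112 upregulated genes the 3 exposed arrays lay above the 3 controls and in all 135 downregulated genes below them. Over all genes tested, such a separation was seen in 17.3% and 16.6%. The called genes were chosen by size and B on these same arrays, so their separation adds no support. Nor does it for genes called by adjusted p, of which 1614 of 1629 and 1109 of 1128 were separated. This holds wherever separation is given below. The smallest fold change among the upregulated genes was that of RPS6KA6 (1.00), and just outside was RFX3 (0.99). On the other side ELMO1 was the last inside and OAT the first outside, both at -1.0 once rounded.

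**Figure D1:**
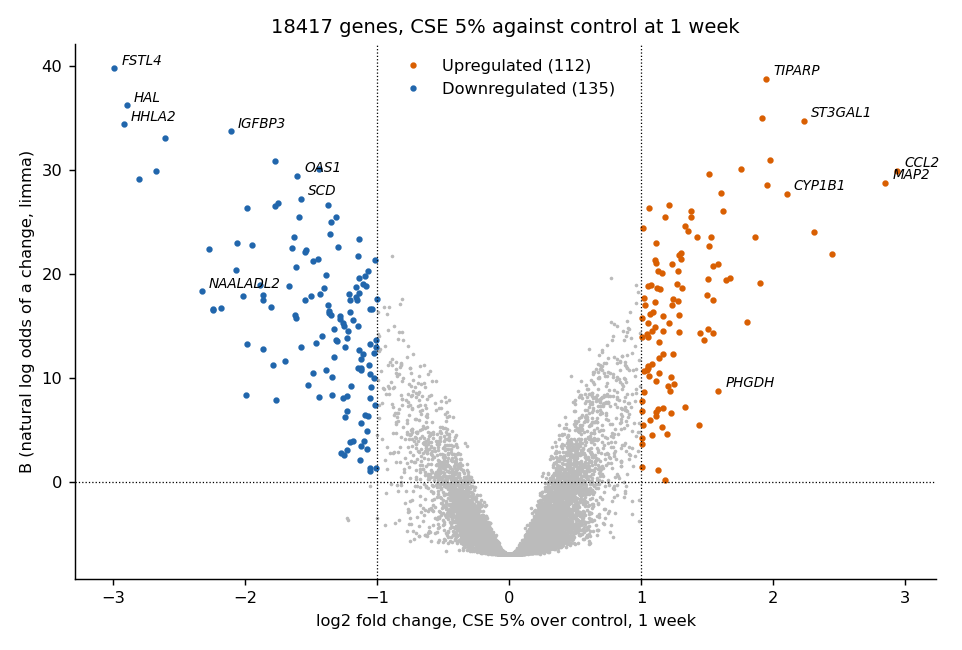
Each point is 1 of the 18417 genes, with the log2 fold change of CSE 5% over control at 1 week on the x axis and B, the natural log odds of a change, on the y axis; dotted lines mark the limits. The 112 upregulated genes reach 2.94 (CCL2) and the 135 downregulated genes -2.99 (FSTL4), and the highest B values belong to FSTL4 and TIPARP.

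The largest rise was that of CCL2, the chemokine that draws monocytes. Its level was 6.57, 6.59 and 6.53 in the controls and 9.45, 9.54 and 9.51 with CSE 5%. The 2 groups were far apart and tight, and the fold change was 2.94 on the log2 scale (standard error 0.15, 7.67-fold, limma adjusted p = 3.05e-14). MAP2, which codes for a protein that binds microtubules, had levels of 7.49, 7.79 and 7.29 in controls and 10.52, 10.18 and 10.41 in exposed cells, a rise of 2.85 (standard error 0.16). PLEKHH2 rose by 2.45, QPCT, an enzyme that turns an N-terminal glutamine of chemokines and other peptides into pyroglutamate, by 2.31, and ST3GAL1, a sialyltransferase, by 2.23 (standard errors 0.18, 0.15 and 0.10). Further down the order stood PXDN (1.91), a peroxidase that cross-links basement membrane collagen, TNFRSF9 (1.90), a receptor of the TNF family, NUPR1 (1.86), a stress-induced nuclear protein, and DOCK11 (1.80), an exchange factor for CDC42. In each of these genes all exposed arrays exceeded all controls, which was a condition for naming them.

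On the opposite side, FSTL4, a secreted protein of the follistatin-like family, was read at 9.80, 9.90 and 9.91 in controls and at 6.78, 6.93 and 6.91 with CSE 5%. This was the largest fall, with a log2 fold change of -2.99 (standard error 0.10, 7.96-fold lower, adjusted p = 6.05e-18). HHLA2, an immune ligand of the B7 family, was at 8.54, 8.53 and 8.01 in controls and at 5.42, 5.54 and 5.36 in exposed cells (-2.92). HAL, the enzyme that breaks down histidine, went from 8.60, 8.61 and 8.42 to 5.64, 5.64 and 5.66 (-2.90), the exposed arrays lying within hundredths of each other. The tetraspanin gene TSPAN8 followed with -2.80. The olfactory receptor genes OR51E2 (-2.67) and OR51E1 (-2.19) lie together on chromosome 11 and both fell. Also among the 15 largest falls were NAALADL2 (-2.33), the bicarbonate transporter SLC4A4 (-2.24), IGFBP3 (-2.11), a carrier of insulin-like growth factors, the peptidase DPP4 (-2.07) and the kinase MAPK4 (-2.06). Of the B7 family list only CD274, which codes for PD-L1, fell besides HHLA2, by 0.58, and its call was lost without control replicate 1 or CSE 5% replicate 1.

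**Figure D2:**
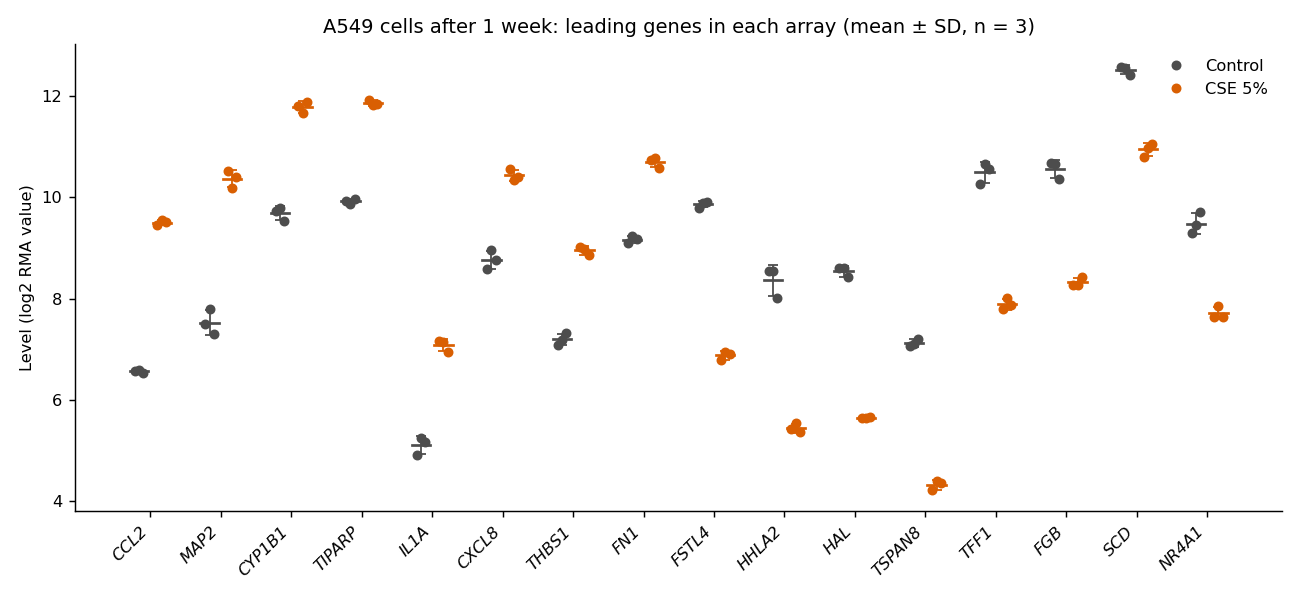
Level (log2 RMA value, y axis) of 16 genes (x axis) in each of the 3 control and 3 CSE 5% arrays of week 1; points are arrays, bars the mean and SD. The arrays of both groups are separated in all 16 genes, with CCL2 moving from about 6.6 to 9.5 and FSTL4 from 9.9 to 6.9. All 16 were picked from the genes called on these same arrays, so their separation adds no support.

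In the aryl hydrocarbon receptor list a few members rose strongly. Whether the receptor brought about these rises was not tested. CYP1B1, a cytochrome P450 that oxidises polycyclic aromatic hydrocarbons, was at 9.73, 9.80 and 9.53 in controls and 11.80, 11.67 and 11.89 in exposed cells, a rise of 2.10 (standard error 0.12). TIPARP, which ADP-ribosylates the receptor and limits its activity, went from 9.93, 9.87 and 9.96 to 11.92, 11.83 and 11.84, up by 1.95 (standard error 0.07, adjusted p = 9.97e-18). Both groups were separated in both genes. Of the 15 measured genes of the aryl hydrocarbon receptor list, 4 rose and none fell, with a median of 0.18. The third, ALDH3A1, an aldehyde dehydrogenase, rose by 0.38, and the fourth, ARNT2, a partner of the receptor, by 0.56, a call lost without control replicate 3. CYP1A1, often taken as the marker of this receptor, had 5.69, 5.41 and 5.77 in controls and 6.20, 5.84 and 5.83 in exposed cells (0.33, adjusted p = 0.099), and AHR itself differed by 0.18 (adjusted p = 0.53). Of 23 other cytochrome P450 genes 2 rose, beside 8.85% of all genes. These were CYP39A1 (0.50) and CYP4F11 (0.21). The first call was lost without control replicate 3 and the second without any of 5 of the 6 arrays.

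Glutathione and redox genes under NRF2 rose in part. Of 32 measured genes 14 rose and none fell, and the median was 0.26. GCLC and GCLM, the catalytic and the modifier subunit of the enzyme that limits glutathione synthesis, led the list. GCLC had 10.55, 10.40 and 10.15 in controls against 11.38, 11.33 and 11.41 with CSE 5% (1.00, standard error 0.15), and GCLM rose by 0.93 (standard error 0.17). The export pumps ABCC1, ABCC2 and ABCC3 rose by 0.64, 0.63 and 0.53, the thioredoxin reductase TXNRD1 by 0.63, the small MAF protein MAFG by 0.79 and the epoxide hydrolase EPHX1 by 0.69. HMOX1, the heme oxygenase, was at 8.39, 8.56 and 8.67 in controls and 9.08, 8.82 and 8.95 in exposed cells, without overlap, yet its difference of 0.41 did not pass (adjusted p = 0.14). NQO1, a quinone reductase, had 13.06, 13.03 and 13.03 against 13.16, 13.11 and 13.19 (0.12, adjusted p = 0.14), at a level near the upper end of the deposited values, which reached 14.5. Of the metallothionein and zinc list, 2 of 11 rose, among them the metal-sensing factor MTF1 (0.45). Of 20 heat shock genes and chaperones 3 rose and 2 fell, beside 8.85% and 6.12% of all genes. Within this last list the small chaperone HSPB8 rose by 1.07 (standard error 0.17) while CRYAB, a related small heat shock protein, fell by 0.58.

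NF-κB is a dimeric factor held in the cytoplasm by inhibitor proteins, several of which it induces itself as a brake. Of the 19 measured subunits, inhibitors and feedback genes, 12 rose and none fell, with a median of 0.43, and the mean level over the list was 8.13 to 8.19 in controls and 8.61 to 8.69 with CSE 5%. TNFAIP3, the A20 protein that ends NF-κB signalling, was at 6.48, 6.43 and 6.59 in controls and 8.02, 7.84 and 7.71 in exposed cells, a rise of 1.36 (standard error 0.09). Among the subunits NFKB1 rose by 0.52, NFKB2 by 0.77 and RELB by 0.73. Among the brakes CYLD rose by 0.63, TNIP1 by 0.43, NFKBIA by 0.41 and NFKBIB by 0.35. TNFAIP2 (1.13), IRF1 (0.84), the mitochondrial superoxide dismutase SOD2 (0.60) and NFKBIZ (0.44) rose as well. Upstream promoter sequence is shown for 2 of these brakes because the NF-κB motif lies close to the start in both. The lines give the 120 bases before the start from RefSeq on GRCh38.p14, 5′ to 3′ on the strand of the gene, for TNFAIP3 at chr6:137867139-137867258 (plus strand) and NFKBIA at chr14:35404750-35404869 (minus strand), with matches to the NF-κB motif in capitals.
TNFAIP3: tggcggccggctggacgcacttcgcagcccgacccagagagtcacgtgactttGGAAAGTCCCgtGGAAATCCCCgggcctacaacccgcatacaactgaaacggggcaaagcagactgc
NFKBIA: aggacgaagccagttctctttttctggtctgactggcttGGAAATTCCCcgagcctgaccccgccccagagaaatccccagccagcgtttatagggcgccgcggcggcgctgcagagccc
TNFAIP3 held 2 matches that began 67 and 55 bases before the start and NFKBIA 1 match at 81 bases. Searched on both strands over 250 bases upstream, the motif was found in 10 of the 17 genes of the list that had a RefSeq promoter and in 7.67% of the 14239 tested genes with one. A gene counted as holding a motif where any of its RefSeq starts did, and a match describes the sequence only.

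Secreted signals behind this list were fewer. Of 20 measured chemokines 3 rose and none fell: CCL2, CXCL8 and CXCL1, the last 2 of which attract neutrophils. CXCL8 had 8.58, 8.95 and 8.76 in controls against 10.56, 10.35 and 10.41 in exposed cells (1.68, standard error 0.13), and CXCL1 had 8.97, 9.21 and 9.37 against 10.27, 10.35 and 10.24 (1.10, standard error 0.11). The median of the chemokine list was 0.03. A fit of the 12 arrays of week 1 alone had 5 chemokines higher, and with array weights, which count steadier arrays more, 6 were higher and 1 lower. Of 21 interleukins and colony stimulating factors 3 rose and 1 fell, beside 8.85% and 6.12% of all genes. IL1A, an alarm cytokine of epithelia, stood at 4.90, 5.25 and 5.16 in controls and at 7.16, 7.14 and 6.94 with CSE 5%, a rise of 1.98 (standard error 0.10), and IRAK2, a kinase that carries the IL-1 signal, went from 7.09, 7.21 and 7.33 to 9.33, 9.16 and 9.0, a rise of 1.95. CSF1, the macrophage growth factor, rose by 0.90 and IL32 by 0.64, while IL6 stayed at 4.71, 4.77 and 4.54 against 4.65, 4.75 and 4.65 (0.01, adjusted p = 0.97).

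Of 21 cytokine receptor genes 11 rose and 3 fell, with a median of 0.33. The interferon receptor chains IFNGR1 (0.91), IFNAR2 (0.89) and IFNGR2 (0.33) and the IL-1 receptor IL1R1 (0.61) rose, while IL1R2, the decoy receptor of IL-1, fell by 0.89 (standard error 0.07) and IL4R by 0.50. The count of risen receptors dropped from 11 to 6 without control replicate 3 and also without CSE 5% replicate 1, and the call of IL1R1 was lost without the former. IL6ST, the signalling chain shared by the IL-6 family, had the largest difference (0.93), and its call was lost without control replicate 3 or CSE 5% replicate 1 or 3. Of 28 interferon-induced genes 2 rose and 2 fell, beside 8.85% and 6.12% of all genes. OAS1, an antiviral enzyme that synthesises oligoadenylate, moved most, from 10.72, 10.70 and 10.98 in controls to 9.06, 9.30 and 9.22 with CSE 5%, a fall by 1.61 (standard error 0.09) without overlap. OAS3 fell by 0.53 and IFIT5 rose by 0.93.

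**Figure D3:**
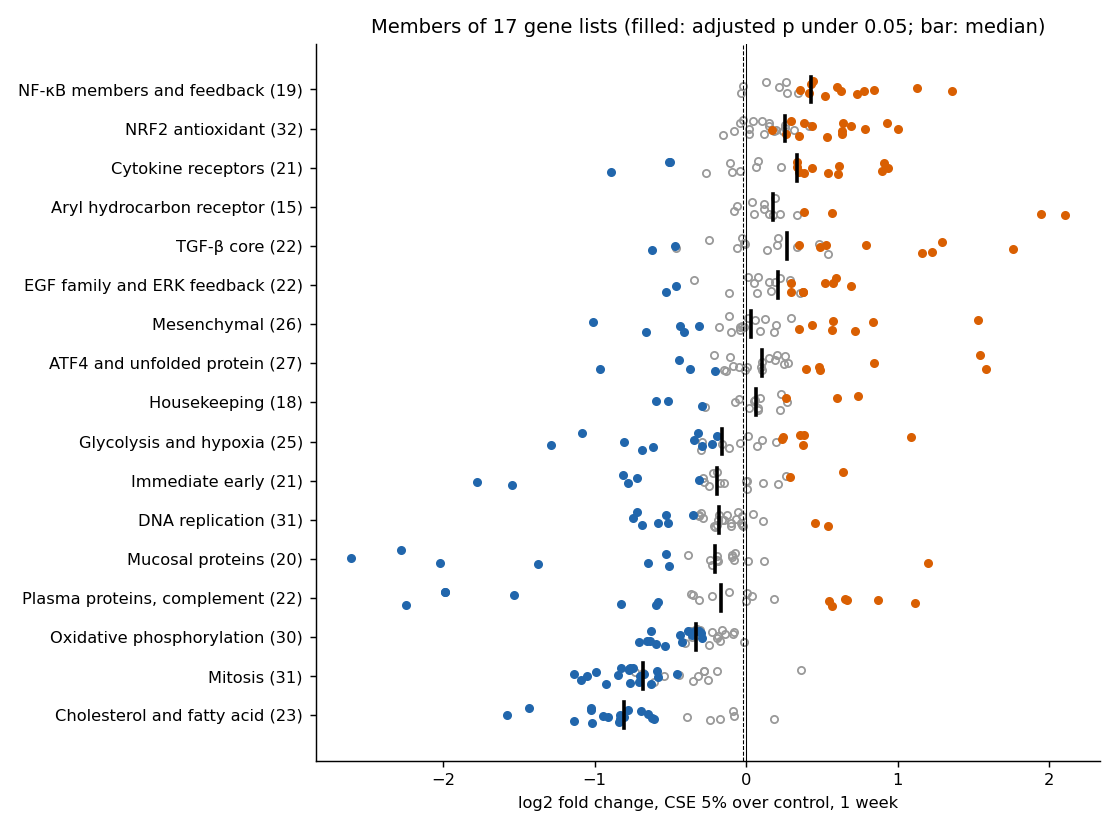
Log2 fold change of CSE 5% over control at 1 week (x axis) for every measured member of 17 gene lists (y axis, members in parentheses); filled points passed an adjusted p of 0.05, bars are list medians and the dashed line is the median of all genes, -0.022. No member of the NF-κB, NRF2 or aryl hydrocarbon receptor lists fell, and none of the cholesterol, mitosis or oxidative phosphorylation lists rose.

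TGF-β reaches the cell in a latent form that integrins and thrombospondin release, and signals through 2 receptor chains to SMAD2, SMAD3 and SMAD4. In a list of 22 core components, 8 rose and 2 fell, with a median of 0.27, beside 8.85% and 6.12% of all genes. This list was put together after the data were seen, so its count and median add no support. Among the ligands, TGFB1 had 7.65, 7.71 and 8.05 in controls and 9.06, 9.03 and 8.99 with CSE 5% (1.22, standard error 0.15), and TGFB2 had 6.39, 6.32 and 6.27 against 7.56, 7.50 and 7.40 (1.16, standard error 0.11). TGFB3 differed by 0.14 (adjusted p = 0.58). Among the activators, THBS1, thrombospondin 1, went from 7.08, 7.19 and 7.31 to 9.01, 8.98 and 8.86, a rise of 1.76 (standard error 0.09, 3.38-fold). ITGB6, the β6 chain, was at 6.01, 5.98 and 5.96 in controls and at 6.83, 6.74 and 6.74 in exposed cells, a rise of 0.79 (standard error 0.15). Its partner ITGAV had 10.58, 10.41 and 9.76 against 10.79, 10.66 and 10.91, control replicate 3 lying below the other controls. The 2 groups did not overlap, but the difference of 0.54 did not pass (standard error 0.22, adjusted p = 0.12). In the receptors and transducers, TGFBR2 rose by 0.53 and SMAD3 by 1.29 (9.48, 9.64 and 9.65 against 10.93, 10.94 and 10.75), whereas SMAD2 fell by 0.62 (10.93, 10.84 and 10.75 against 10.27, 10.17 and 10.21) and LTBP2, a latent TGF-β binding protein, by 0.47. TGFBR1 (-0.01) and SMAD4 (-0.06) did not pass. The inhibitor SMAD7 rose by 0.35 and the coreceptor TGFBR3 by 0.49, and each call was lost when single arrays were left out, that of SMAD7 without any of the 6 arrays and that of TGFBR3 without replicate 2 or 3 of either group. Of the 19 integrin chains as a whole, ITGB6 rose, ITGB2 fell by 0.39, and the others did not pass. Over all genes 8.85% rose and 6.12% fell.

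Genes of the related BMP and activin branch went both ways, 7 of 27 up and 6 down, with FSTL4 the lowest of the latter. The ligand BMP4 and the receptor BMPR1B rose by 1.13 and 1.08, and the receptor ACVR1 by 0.64. The ligands BMP2 and BMP6 fell by 0.68 and 0.99, and the antagonist NOG by 0.89. Without control replicate 3 the risen genes numbered 4. In the Wnt list 6 of 30 rose and 1 fell. Most of the risen genes are negative regulators that Wnt signalling itself induces, RNF43 (0.41), NKD1 (0.41), AXIN2 (0.35) and ZNRF3 (0.28), besides the coreceptor LRP6 (0.55) and CTNNB1 (0.27). NKD1, AXIN2, ZNRF3 and LRP6 each lost their call without at least 1 array: NKD1 without control replicate 1, AXIN2 without CSE 5% replicate 2, LRP6 without control replicate 3 and ZNRF3 without replicate 1 or 2 of the controls or replicate 2 or 3 of the exposed cells.

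Mesenchymal genes were split, 7 of 26 higher and 5 lower, with a median of 0.04. FN1, fibronectin, was at 9.09, 9.23 and 9.18 in controls and at 10.74, 10.77 and 10.58 with CSE 5%, a rise of 1.53 (standard error 0.10). CDH2, N-cadherin, had 6.45, 6.35 and 6.34 against 7.18, 7.25 and 7.22 (0.84), and VIM, vimentin, had 9.95, 10.06 and 10.05 against 10.51, 10.38 and 10.48 (0.44). All 3 were separated. Against these, ACTA2, the smooth muscle actin of myofibroblasts, fell by 1.01 (8.03, 8.16 and 8.46 against 7.31, 7.18 and 7.13), CDH11 by 0.66 and the transcription factor SNAI1 by 0.43. Without control replicate 1 the lower genes numbered 3 in place of 5. CDH1, E-cadherin, was read at 11.29, 11.21 and 11.19 in controls and at 11.40, 11.40 and 11.25 in exposed cells, overlapping (0.12, adjusted p = 0.40). Of 24 junction and keratin genes 5 rose and 2 fell, with TJP1 (0.59), CLDN1 (0.63) and KRT80 (0.89) among the higher and PKP2 (-0.47) among the lower, and without CSE 5% replicate 1 the higher ones numbered 3.

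Matrix and proteolysis genes showed a similar division. Of 19 collagens 2 rose and 2 fell, beside 8.85% and 6.12% of all genes. COL12A1 rose by 1.51 (standard error 0.12), the only one beyond 1. COL4A3 (-0.46) and COL4A4 (-0.32) fell, and both calls were lost without control replicate 1. In the laminin list 2 of 10 rose and 2 fell, with LAMB3 (0.65) and LAMC1 (0.46) higher and LAMA4 (-0.44) lower. The basement membrane linker NID2 fell by 1.26. Of 28 proteases and inhibitors 6 rose and 5 fell. MMP7, matrilysin, had 10.50, 10.44 and 10.25 in controls against 11.65, 11.53 and 11.69 (1.22, standard error 0.18), PLAU, the urokinase, rose by 1.16 and the sheddases ADAM9 and ADAM17 by 0.98 and 0.71. ADAM12 fell by 1.41. MMP2 had 6.32, 6.60 and 6.57 against 6.42, 6.58 and 6.46 (-0.01, adjusted p = 0.97), and MMP9 had 6.12, 6.19 and 6.32 against 5.98, 6.03 and 6.07 (-0.18, adjusted p = 0.24). The 5 lower genes numbered 2 or 3 without control replicate 2 or 3 or without CSE 5% replicate 2 or 3. Of the EGF family and the feedback genes of ERK, 8 of 22 rose, including EGFR (0.69), TGFA (0.59) and EREG (0.52), and ERBB3 (-0.53) and ERBB2 (-0.46) fell. The risen genes numbered 5, 4 and 5 without control replicate 3, CSE 5% replicate 1 and CSE 5% replicate 2, and the call of ERBB2 was lost without control replicate 3 or CSE 5% replicate 3.

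Cells sense sterols through SREBP factors, which switch on the enzymes of cholesterol and unsaturated fatty acid synthesis together. Of 23 measured genes of this list, 17 fell and none rose, 6 of them were downregulated beyond 1, and the median was -0.80 against -0.022 over all genes. The mean level over the list was 9.77 to 9.98 in controls and 9.06 to 9.20 with CSE 5%. SCD, the desaturase that makes oleate, had 12.59, 12.56 and 12.43 in controls and 10.81, 10.98 and 11.06 in exposed cells, a fall by 1.58 (standard error 0.09, 2.98-fold lower, adjusted p = 3.29e-13). DHCR7, the last enzyme of cholesterol synthesis, went from 10.94, 10.82 and 11.12 to 9.38, 9.67 and 9.54 (-1.43), and FDPS, which makes farnesyl diphosphate, from 9.31, 9.23 and 9.21 to 8.03, 8.25 and 8.05 (-1.14). The groups were separated in all 3. Further members were the sterol sensor INSIG1 (-1.02), SQLE (-1.02), MSMO1 (-1.02), IDI1 (-0.94), the fatty acid desaturases FADS2 (-0.91) and FADS1 (-0.83), CYP51A1 (-0.83), MVK (-0.80), HMGCS1 (-0.78) and the regulator SREBF1 (-0.61). STARD4, a sterol carrier, fell by 0.84, a call lost without control replicate 1 or CSE 5% replicate 1. The sterol regulatory element, spelled TCACNCCAC and searched on both strands in the same windows, was found in 1 of 21 promoters of the list and in 1.19% of all.

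Of 31 measured mitotic genes 19 fell and none rose, with a median of -0.68, and the mean level over the list ran from 7.47 to 7.55 in controls and from 6.66 to 7.09 in exposed cells. KIF23, a kinesin of cell division, had 8.64, 8.49 and 8.02 in controls and 7.55, 7.06 and 7.26 with CSE 5% (-1.09, standard error 0.17). PLK1, a kinase that drives mitosis, went from 9.54, 9.52 and 10.14 to 8.97, 8.64 and 8.62 (-0.99), and CDK1, the kinase of mitotic entry, from 6.73, 6.62 and 6.17 to 5.76, 5.13 and 5.48 (-1.05, standard error 0.23). No exposed array reached a control array in these 3, although the spread within both groups was wider than in the genes above. ANLN (-1.13), TOP2A (-0.93), KIF2C (-0.85), AURKA (-0.82), TPX2 (-0.77), CCNA2 (-0.77), MKI67 (-0.75), CCNB2 (-0.71) and CCNB1 (-0.70) fell too. Of 31 DNA replication genes 7 fell and 2 rose, with PCNA at -0.51 and TYMS at -0.69, and CCND1 at 0.54 and CCNE1 at 0.46. Among 22 p53 targets 3 rose and 1 fell (5 and 0 without CSE 5% replicate 3), beside 8.85% and 6.12% of all genes. CDKN1A, the inhibitor p21, differed by 0.32 (adjusted p = 0.15).

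Many genes of late cell cycle carry a short element close to their start, the cell cycle homology region, spelled TTTGAA. It is shown for 3 genes of the list as the 120 bases before the start from RefSeq on GRCh38.p14, plus strand, at chr10:60778358-60778477 (CDK1), chr16:23678769-23678888 (PLK1) and chr15:69414229-69414348 (KIF23), with the element in capitals.
CDK1: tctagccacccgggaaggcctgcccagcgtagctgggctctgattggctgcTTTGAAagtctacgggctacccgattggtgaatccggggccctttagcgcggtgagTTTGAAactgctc
PLK1: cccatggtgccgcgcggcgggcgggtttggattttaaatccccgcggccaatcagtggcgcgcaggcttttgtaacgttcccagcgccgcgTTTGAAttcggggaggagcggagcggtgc
KIF23: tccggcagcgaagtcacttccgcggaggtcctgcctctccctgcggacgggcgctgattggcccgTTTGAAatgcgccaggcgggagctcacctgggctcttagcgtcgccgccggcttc
The matches began 69 and 13 bases before the start in CDK1, 29 in PLK1 and 55 in KIF23. On both strands of the 250 upstream bases TTTGAA was found in 14 of the 26 list genes with a promoter and in 14% of the 14239 tested genes, and CCAAT, which also stands in such promoters, in 21 of 26 and in 40.4%. The antioxidant response element, TGACNNNGC, was found in 8 of 24 promoters of the NRF2 list against 15.1% of all. The xenobiotic response element, TNGCGTG, lay in 2 of 12 of the aryl hydrocarbon receptor list against 7.04%. Among changed list members with a promoter, the antioxidant element lay in 3 of 10, the xenobiotic in 0 of 1 and the sterol in 0 of 16. The NF-κB motif lay in 9 of 11 changed members of its list, TTTGAA in 10 of 17 and CCAAT in 15 of 17.

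Respiratory chain genes fell by smaller amounts, 14 of 30, with none higher and a median of -0.33. NDUFA8 (-0.71) and NDUFA1 (-0.63) of complex I, SDHA (-0.59) of complex II and COX6C (-0.63) of complex IV were among them. The fallen genes numbered 9 without control replicate 3 and 8 without CSE 5% replicate 2. Glycolysis and hypoxia genes went both ways, 6 of 25 up and 10 down. PFKFB3, which makes an activator of glycolysis, rose by 1.08, while ALDOC, an aldolase, fell by 1.29 and SLC2A3, the glucose transporter GLUT3, by 1.08. Without control replicate 1 or CSE 5% replicate 1 the counts were 3 up and 8 down. Among enzymes of serine synthesis, PSAT1 rose by 0.85 (10.11, 10.17 and 10.04 against 10.96, 10.85 and 11.04) and PHGDH, the first of the pathway, by 1.58. PHGDH was unsteady in controls, at 8.78, 9.87 and 10.23, and steady in exposed cells, at 11.24, 11.18 and 11.21. Within the list of ATF4 and unfolded protein genes to which both belong, 6 of 27 rose and 4 fell, with STC2 (1.55) the other gene beyond 1 and DDIT3, the stress factor CHOP, lower by 0.97. These counts reached 3 up and 3 down without CSE 5% replicate 1 and 5 up and 2 down without control replicate 3 or CSE 5% replicate 3, and they were 6 up and 2 down without CSE 5% replicate 2.

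Of 20 mucosal genes 7 fell and 1 rose, with a median of -0.21. TFF1, a trefoil peptide of mucus, had 10.26, 10.65 and 10.57 in controls and 7.79, 8.01 and 7.86 with CSE 5% (-2.61, standard error 0.12). CEACAM7, an adhesion molecule, went from 11.47, 11.45 and 11.62 to 9.14, 9.22 and 9.34 (-2.28), and MSLN, mesothelin, from 9.39, 9.74 and 9.97 to 7.63, 7.79 and 7.64 (-2.02). Both groups were separated in each. The mucin genes MUC13 and MUC5B were among the others that fell (-1.37 and -0.65), and the gene that rose was LCN2, lipocalin 2 (1.20). The 3 fibrinogen chains, which lie side by side on chromosome 4, fell together: FGB from 10.67, 10.66 and 10.36 to 8.27, 8.27 and 8.43 (-2.24), FGA by 1.99 and FGG by 1.98. In the list of 22 plasma and complement genes that holds them 7 fell and 6 rose, and 4 of the higher ones were complement factors, C3 by 1.11, C1S by 0.87, CFB by 0.67 and C1R by 0.56. The membrane regulators of complement differed among themselves, CD59 being higher by 0.54 and CD46 and CD55 lower by 0.60 and 0.58. CD68 fell by 1.28 (11.03, 11.14 and 11.15 against 9.87, 9.96 and 9.64) and LYZ by 1.23 (6.48, 6.34 and 6.01 against 5.17, 4.97 and 5.00), again without overlap.

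Among immediate early genes, 6 of 21 fell and 2 rose. The orphan nuclear receptors led: NR4A1 had 9.30, 9.45 and 9.70 in controls and 7.64, 7.85 and 7.64 in exposed cells (-1.78, standard error 0.11), NR4A2 fell by 1.54 and NR4A3 by 0.81. FOS (-0.78) and the phosphatase DUSP1 (-0.72) fell, while JUN rose by 0.64. Of 18 clock genes 4 fell and 1 rose, NR1D1 (-0.82), BHLHE40 (-0.81), PER1 (-0.59) and PER2 (-0.42), and the calls of NR1D1 and PER1 were lost without control replicate 3. In the prostaglandin list 3 of 15 rose and 2 fell: TBXAS1 (0.80), the prostaglandin exporter ABCC4 (0.67) and PTGES (0.42) rose, and the phospholipase PLA2G4A (-0.82) and PTGS2 (-0.50), the inducible cyclooxygenase, fell. The call of PTGES was lost without control replicate 1 or 2 or CSE 5% replicate 2 or 3. Of 32 proteasome genes 1 rose and none fell, beside 8.85% and 6.12% of all genes. Housekeeping genes, 3 of 18 higher and 3 lower with a median of 0.07, included POLR2A at 0.74 and SDHA at -0.59.

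CSE 5% was then set directly against the neighbouring concentrations of the same week, a contrast that needs no control array. Against CSE 1%, 36 genes were higher beyond 1 (0.195%) and 206 lower (1.12%), and by adjusted p alone 826 were higher (4.48%) and 1006 lower (5.46%). Cell cycle genes differed in number most among the lists: 29 of 31 mitotic genes and 27 of 31 DNA replication genes were lower with CSE 5% than with CSE 1%, with median log2 differences of -1.43 and -0.98. CDK1 had 7.88, 7.87 and 7.79 with CSE 1%, above every control array, and differed from CSE 5% by -2.39 (adjusted p = 1.04e-08). The replication licensing gene CDC6 had 9.22, 9.23 and 9.10 with CSE 1% and 6.84, 6.95 and 7.31 with CSE 5% (-2.15). Cholesterol and fatty acid genes followed, 18 of 23 lower and none higher, with SCD at 12.87, 12.83 and 12.82 with CSE 1% (difference -1.89) and INSIG1 at 9.88, 9.95 and 9.95 (difference -1.92). Other large differences in the same direction were those of CRYAB (-2.79), NR4A1 (-2.78), PBK (-2.35), a mitotic kinase, SGK1 (-2.25) and FSTL4 (-2.24). Higher with CSE 5% than with CSE 1% were the mitochondrial folate enzyme ALDH1L2 (1.78), CCL2 (1.72), NUPR1 (1.65), IL1A (1.65), IRAK2 (1.60) and the chaperone CLGN (1.57).

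Side by side against the control of week 1, which all 3 concentrations share, the mitotic list had a median of 0.75 with CSE 1%, -0.68 with CSE 5% and -0.53 with CSE 10%, with 23 genes higher, 19 lower and 18 lower. The cholesterol list had medians of 0.23, -0.80 and -0.78, with 4 genes higher, 17 lower and 19 lower. The shares of all genes that passed against control were not counted for CSE 1% or CSE 10%. The list counts at these concentrations therefore have no background to be read against. The NF-κB list had medians of 0.22, 0.43 and 0.48, and the NRF2 list 0.13, 0.26 and 0.30. CXCL8 (1.47, 1.68 and 2.05) and TGFB1 (1.15, 1.22 and 1.10) had already risen with CSE 1%, and for both the difference between CSE 5% and CSE 1% did not pass (0.21, adjusted p = 0.53, and 0.07, adjusted p = 0.92).

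**Figure D4:**
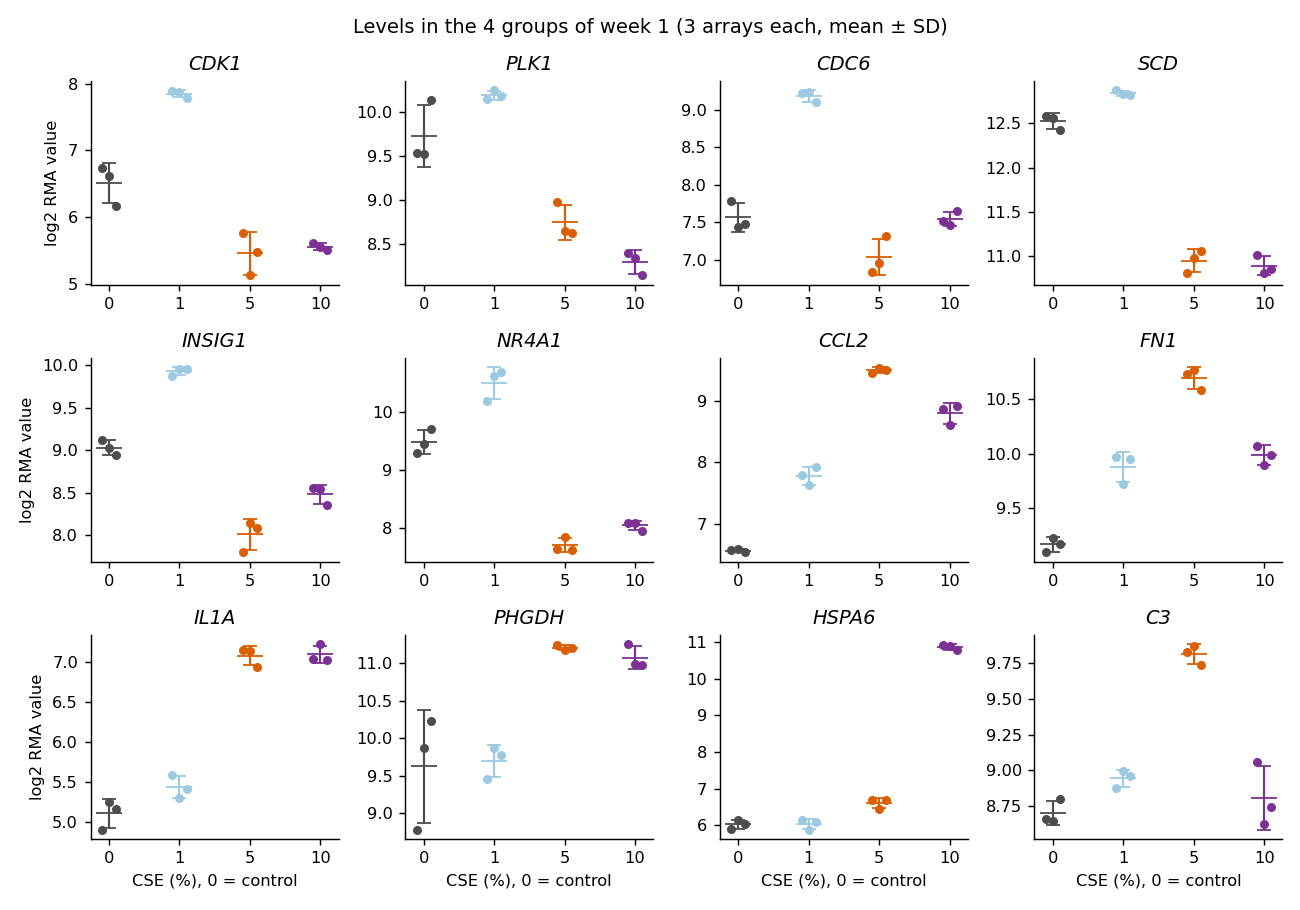
Level (log2 RMA value, y axis) of 12 genes in the 4 groups of week 1 (x axis, CSE in percent, 0 for control); points are the 3 arrays of a group, bars mean and SD. CDK1, PLK1, CDC6, SCD, INSIG1 and NR4A1 are highest with CSE 1%, CCL2, FN1 and C3 with CSE 5% and HSPA6 with CSE 10%.

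Between CSE 10% and CSE 5% fewer genes differed, 34 higher with CSE 10% (0.185%) and 19 lower (0.103%), and by adjusted p alone 268 higher (1.46%) and 635 lower (3.45%). Heat shock genes set the 2 concentrations apart, 10 of 20 being higher with CSE 10% and none lower. HSPA6, an inducible HSP70, was at 6.68, 6.44 and 6.70 with CSE 5% and at 10.92, 10.89 and 10.78 with CSE 10% (4.26), and HSPH1 and DNAJB1 differed by 1.57 and 1.50. ANKRD1 (2.47), TRIML2 (1.76), EGR1 (1.66) and HMOX1 (1.61) were higher as well. In the plasma and complement list 10 of 22 genes were lower with CSE 10% than with CSE 5% and none higher, and 5 were higher and 7 lower with CSE 5% than with CSE 1%. C3 was at 9.83, 9.87 and 9.74 with CSE 5%, at 8.88, 9.0 and 8.96 with CSE 1% and at 9.06, 8.63 and 8.74 with CSE 10%, and the differences from both neighbours passed (0.87, adjusted p = 0.00079, and -1.01, adjusted p = 0.00033). The same held for C1S, CFB and C1R, which were lower with CSE 10% than with CSE 5% by differences of -0.72, -1.05 and -0.71, and for FN1, which differed from CSE 1% by 0.82 and from CSE 10% by -0.71. CCL2 was lower with CSE 10% as well (difference -0.70, adjusted p = 0.0061). Of 20 mucosal genes 10 were lower with CSE 10% and none higher, with CEACAM7 at a difference of -1.13, and these numbered 6 without CSE 10% replicate 2 or CSE 5% replicate 2. Over all genes, ADH6 (-1.85), CST1 (-1.67), the brush border genes VIL1 (-1.51) and MYO1A (-1.41), UPK1B (-1.38) and the mucin gene MUC16 (-1.23) differed most in this direction.

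The effect of CSE 5% at 1 week was finally compared with that at 3 weeks, each taken against the control of its own week. The difference of the effects went beyond 1 with B above 0 for 94 genes that were higher at 3 weeks (0.51%) and 18 that were lower (0.0977%), and by adjusted p alone for 450 (2.44%) and 397 (2.16%). Among the largest differences downward, PHGDH was at 1.58 at 1 week and at -0.58 at 3 weeks (difference -2.16), where the effect at 3 weeks by itself did not pass (adjusted p = 0.052). PSAT1 was at 0.85 and -0.60 and ALDH1L2 at 0.75 and -1.21, both higher at 1 week and lower at 3 weeks. NUPR1 went from 1.86 to -0.15. Of the 27 ATF4 and unfolded protein genes 10 had a lower effect at 3 weeks and none a higher one, or 6 without control replicate 2 of week 3. In the cholesterol and fatty acid list, 9 of 23 genes had a higher effect at 3 weeks, with SCD at -1.58 and then -0.28 (difference 1.30), and 5 without control replicate 1 or CSE 5% replicate 1 of week 1 or control replicate 2 of week 3. Of 22 plasma and complement genes 7 had a higher effect at 3 weeks and 1, CD55, a lower one, and C3 went from 1.11 to 2.37, CFB from 0.67 to 1.71 and C1R from 0.56 to 1.50. CYP1B1 stood at 2.10 and then 4.13, TIPARP at 1.95 and 2.98, MMP7 at 1.22 and 2.46, MMP2 at -0.01 and 1.26, and ITGB6 at 0.79 and 1.83. The differences of FSTL4 (0.16), ST3GAL1 (0.03) and THBS1 (-0.10) did not pass (adjusted p = 0.70, 0.95 and 0.82).

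**Figure D5:**
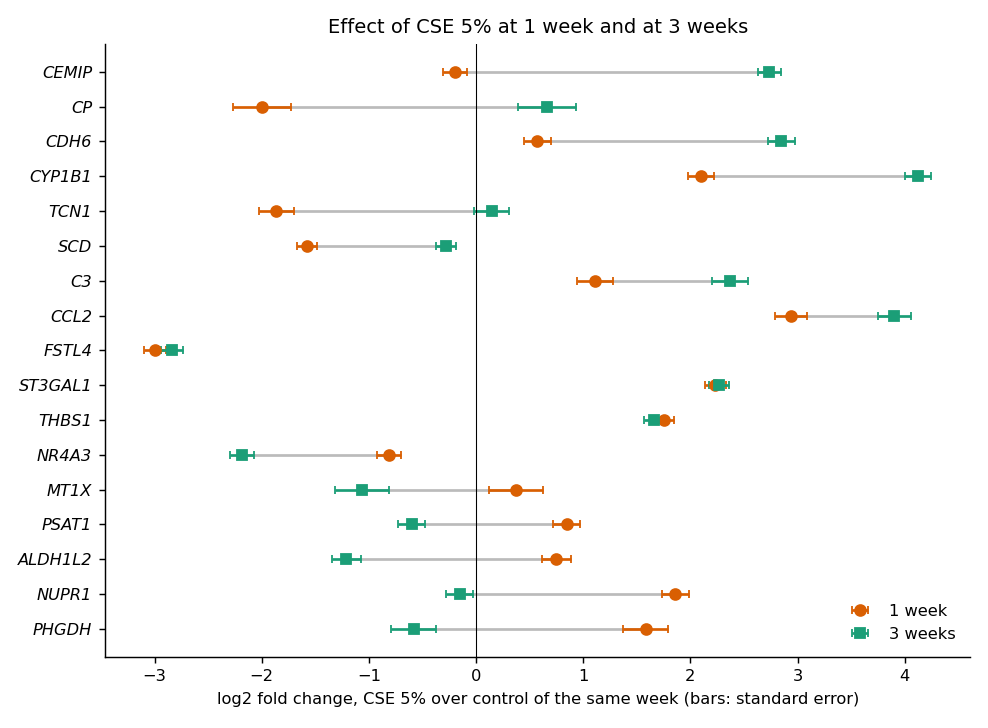
Log2 fold change of CSE 5% over the control of the same week (x axis) for 17 genes (y axis) at 1 week (circles) and 3 weeks (squares), bars giving the standard error. PHGDH, PSAT1 and ALDH1L2 lie above 0 at 1 week and below it at 3 weeks, and CYP1B1, C3 and CDH6 lie further to the right at 3 weeks.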

How the data were processed

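RNA of A549 cells was hybridised to Human Gene 1.0 ST arrays. The authors background corrected, normalized and summarised the signals with RMA (package oligo) and deposited log2 values per transcript cluster; R 2.11.0, RMA and limma are named in the submitters' processing notes, and of the genome build the sources used here say nothing. RMA aligns the distributions of all arrays, so a shift shared by most genes would be lost, and the number of arrays limits the precision.

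The values (2.29 to 14.5) were used as deposited. Of 33297 transcript clusters, 19460 carried 1 symbol, 1754 several and 12083 none. For the 769 genes with several clusters, the cluster of highest mean across the 36 arrays was taken, and no cluster with several symbols was named. A gene the study names and some list members are not analysed here.

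limma 3.58.1 in R 4.3.3 fitted 12 group means to all 36 arrays (24 residual and 3.91 prior degrees of freedom, prior proportion 0.01). Genes were counted where the log2 fold change passed 1 in size with B positive; single genes and list members were called at p under 0.05 after Benjamini-Hochberg adjustment across all clusters. Every adjusted p comes from limma.

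Named are the 15 largest rises and falls with separated groups, up to 6 list members with the smallest p and defining members of a pathway, genes the study names for the arrays, and the 6 largest per direction of each other contrast. Further list members and the genes at the threshold were named after their values were seen. The members, the 40 gene lists and the tests were chosen with earlier results of these data known. The TGF-β core list, the motifs, the promoters shown and the counts by adjusted p in the other contrasts were added after the data were seen. Motifs were searched in 250 bases upstream of RefSeq starts (35116 windows, 14239 tested genes). The fit was tested on simulated data.

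Alternatives were B above 3, adjusted p in place of B, separate fits, a fit of week 1 alone, the replicate block, the 60% brightest clusters, cyclic loess, centring on housekeeping genes, array weights, trended and robust variance, the mean of a gene's clusters, and each array left out.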

Additional observations from a re-analysis of the deposited data

Results flagged for a closer look

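The effect of CSE 5% against the control of the same week differed between 3 weeks and 1 week, by the test of that difference, for 94 genes that were higher at 3 weeks and 18 that were lower. The largest differences downward were those of PHGDH (-2.16), NUPR1 (-2.01), ALDH1L2 (-1.96), PSAT1 (-1.44), MT1X (-1.44) and NR4A3 (-1.37). PHGDH, PSAT1 and ALDH1L2 are enzymes of serine synthesis and of mitochondrial folate metabolism, MT1X is a metallothionein and NR4A3 a nuclear receptor. The largest differences upward were those of CEMIP (2.93), which takes part in hyaluronan breakdown, CP (2.66), ceruloplasmin, CDH6 (2.28), a cadherin, KLRC4-KLRK1 (2.19), a readthrough of 2 neighbouring genes, CYP1B1 (2.02) and TCN1 (2.01), which binds vitamin B12. CEMIP stood at -0.20 at 1 week and at 2.74 at 3 weeks, CP at -2.00 and 0.66, and TCN1 at -1.86 and 0.15. The spread was wide for KLRC4-KLRK1, with 6.73, 5.39 and 5.67 in the controls of week 1, and its call was lost without control replicate 1 or CSE 5% replicate 2 of week 1 or CSE 5% replicate 1 of week 3. MT1X lost its call without CSE 5% replicate 1 of week 1, control replicate 2 of week 3 or CSE 5% replicate 1 or 3 of week 3.

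Outside the named genes, 22 transcript clusters without a single symbol were upregulated at 1 week with CSE 5% and 22 were downregulated, by the same limits.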

How the results depend on the processing

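Of the counts at an adjusted p under 0.05, those for CSE 5% against control moved by over 1.5 times in 2 settings: 772 higher and 592 lower in a separate fit of the 6 arrays, which has fewer residual degrees of freedom, and 2565 higher and 1989 lower with array weights (0.33 for control replicate 3 to 2.92 for control replicate 2), where the cause was not tested. In the separate fit the risen genes of the NRF2 list numbered 8, of the cytokine receptors 4, of the EGF and ERK list 3 and of the Wnt list 1, the fallen genes of oxidative phosphorylation 8 and of DNA replication 4, and the ATF4 list had 3 up and none down. With array weights 9 genes of the aryl hydrocarbon receptor list rose and 11 of DNA replication fell. For 3 weeks minus 1 week, a separate fit had 3 cholesterol and fatty acid genes higher in place of 9. Plasma and complement genes that were higher numbered 4 in place of 7, and lower ATF4 list genes 6 in place of 10. With array weights the ATF4 list had 18 lower and 1 higher in that contrast. With the replicate block the counts were 1551 higher and 1071 lower, 111 upregulated and 135 downregulated. The deviations of same-numbered arrays correlated at 0.07, -0.08 and -0.13, and those of unlike-numbered arrays at -0.22 to 0.23. With 3 arrays per group these values cannot show whether the numbers pair the samples. With each array left out in turn, 98 to 129 genes were upregulated and 126 to 149 downregulated, 1093 to 1605 were higher and 840 to 1148 lower. The counts beyond 1 with B above 0 stayed within 1.5 times in every alternative run. Of 5346 values for single genes over all alternatives, 4898 kept their side of the threshold, 437 lost the call and 11 gained it. The losses were uneven. They numbered 99 of 354 in the separate fit, 54 of 330 without control replicate 3, 50 of 354 without CSE 5% replicate 1 and 0 with trended and robust variance. NFKBIA, NFKBIB, CYLD, CTNNB1, DDIT3, CCNB1, IFNGR2 and CD46 were among those that lost their call in the separate fit. No gene with a call in either fit changed sign, and sign changes in genes without a call were not counted. For CSE 5% against control at 1 week, no scaling moved the median of all genes by 0.1. The difference of effects between 3 weeks and 1 week depended more on scaling. Centring on housekeeping genes took its count beyond 1 with B above 0 from 112 to 158. The median difference of the DNA replication list went from -0.37 to -0.22. RMA values carry no detection call, so low genes rest on signal whose background share is unknown.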
